A study of Homo sapiens with 4 samples.

Results

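The genes described here are 10 components of transforming growth factor beta (TGF-beta) signalling: the ligand TGFB1, its receptors TGFBR1 and TGFBR2, the signal carriers SMAD2, SMAD3 and SMAD4, the inhibitory SMAD7, and the nuclear corepressors SKI, SKIL and TGIF1. They are 10 of 19974 protein-coding genes on chromosomes 1 to 22 and X. For each one, every peak that touched the gene body or the 20 kb on either side was taken, at RefSeq positions on the hg38 assembly. Peaks came from CUT&Tag, a method in which an antibody brings a tagging enzyme to a chromatin protein so that DNA beside that protein is cut out and sequenced. The cells were NB4, an established human line of acute promyelocytic leukemia with the PML/RARA fusion, so all results come from a single line. The series has 4 libraries: one with a PPARα antibody, one with a PML/RARA antibody, and an IgG control library named for each. The labels give no drug, dose or time for any of them. One peak list per antibody was analysed, with no replicate and no IgG signal, so no test over samples was possible and read depth is unknown. Neither list holds expression values, and the sources used here do not say whether the PML/RARA antibody also recognises unfused PML or RARA.

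In this pathway TGF-beta binds TGFBR2, which recruits and activates TGFBR1. The activated receptor phosphorylates SMAD2 and SMAD3, which join SMAD4 and enter the nucleus to regulate genes, with growth arrest of blood progenitors among the known outcomes. SKI, SKIL and TGIF1 bind these SMAD complexes and bring histone deacetylases to them, and SMAD7 blocks the receptor. PML/RARA represses retinoic acid target genes through similar corepressors, and PPARα is a fatty acid-sensing nuclear receptor that binds DNA with RXR.

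PML/RARA peaks were called at a start of all 10 genes, and PPARα peaks at a start of 5 of them: SKIL, TGIF1, SMAD2, SMAD3 and TGFBR1. A gene was counted when a peak touched the window of 1 kb on each side of any of its RefSeq starts, or of either annotated end for genes with no start listed, which include SKI. Among all protein-coding genes, 57.7% had a PML/RARA peak at a start and 32.7% had a PPARα peak there. Both antibodies were present at a start in 5 members, against 32.4% of all genes. In the wider windows 10 of 10 genes held a PML/RARA peak, against 78.9% of all protein-coding genes, and 9 of 10 held a PPARα peak, against 53.5%. The windows of these genes were longer than most, with a median of 92.7 kb against 64.2 kb over all protein-coding genes. SKIL was put in the set for the height of its PML/RARA peak, so the heights are given as descriptions and nothing is read from these shares. The PPARα count depended on which starts and peaks were allowed. With the outermost RefSeq start of each gene only, 2 members (SKIL and SMAD2) kept PPARα (31.6% of all genes) and 9 kept PML/RARA (56.1%). With −log10 q of at least 5, 3 members (SMAD2, SMAD3 and TGFBR1) kept PPARα (24.1%) and 10 kept PML/RARA (54.5%). When only as many top PML/RARA peaks were used as there are PPARα peaks, 8 kept PML/RARA (30.4%).

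The windows held 70 PML/RARA peaks and 14 PPARα peaks. SKI and SMAD3 together held 42 of the 70. Of these 70 peaks, 16 lay at a start, 35 elsewhere inside a gene and 19 in the flanks. Fold enrichment, the authors' linear ratio of a peak over its background, had a median of 13.8 at starts (2.21 to 23.2), 6.43 inside genes (2.201 to 23.6) and 5.38 in flanks (2.40 to 14.2). The strongest start peak of a member, by −log10 q, had a median fold of 14.005, and the same peak had a median of 14.4 over the 11522 protein-coding genes that carried one. For PPARα the 5 marked members had a median of 6.43, against 7.07 over 6537 genes. These medians lay near the background, and SKI and SKIL had the highest start peaks of the set.

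**Figure D1:**
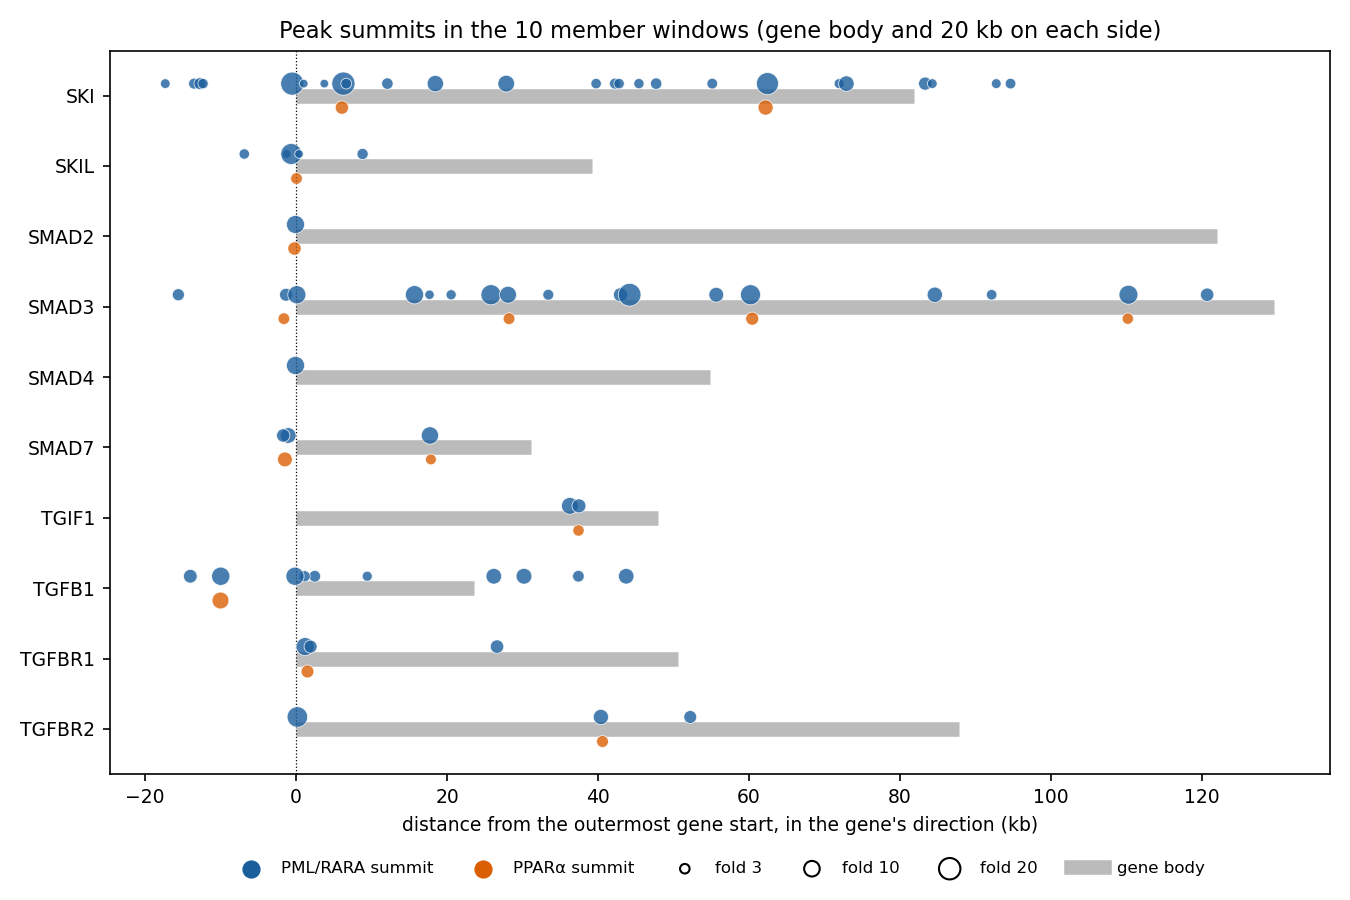
Summits of PML/RARA peaks (blue, above the gene) and PPARα peaks (orange, below) against distance in kb from the outermost start of each gene, in the direction of the gene (for SKI, from its lower-coordinate end). Marker area grows with fold and grey bars are gene bodies. SKI holds 25 PML/RARA summits and SMAD3 holds 17, while SMAD2 and SMAD4 hold 1 each.

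SKIL, which encodes the SMAD corepressor also called SnoN, carried the highest-scoring PML/RARA peak of the set. SKIL lies on chromosome 3 from 170357715 to 170396849, on the plus strand. Its peak ran over chr3:170356671-170357919, 1249 bases wide, at fold 19.0 and −log10 q 738, which is rank 19 of 46021. The summit lay 649 bases before the gene start. This height is what put SKIL in the set.

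Around this peak the list held small neighbours of low fold. One of fold 2.40 lay at 170356408 to 170356553 and one of fold 2.21 at 170358060 to 170358233, with −log10 q of 12.6 and 9.35. Peaks of fold 3.78 and 4.55 lay farther out, one in the upstream flank and one inside the gene. The tall peak therefore stood nearly alone in the SKIL window.

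The single PPARα peak at SKIL was modest and sat over the gene start, not over the PML/RARA summit. It covered chr3:170357678-170358129 at fold 5.04 and −log10 q 3.73, rank 7448 of 9829. Its summit lay 16 bases after the start and 665 bases from the summit of the tall PML/RARA peak, with which it shared 242 bases. It also touched the peak of fold 2.21, summit to summit 365 bases. By the window's best PPARα peak, 45.7% of protein-coding genes scored as high or higher.

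The SKIL start is shown because both antibodies had peaks over it. The RefSeq sequence (GRCh38.p14, chr3:170357465-170357764, plus strand) is printed 5′ to 3′, 250 bases before the start and 50 from it. In all sequences printed here capitals mark matches, on either strand, to the motifs searched: AGGTCA (nuclear receptor half-site), AGTTCA (variant half-site), GGGTCA (variant half-site), CAGACA (SMAD binding), GTCTAGAC (SMAD palindrome), TGACTCA (AP-1), CCGGAAG (ETS), GGGCGG (GC box), CACGTG (E-box) and TGACGTCA (cyclic AMP response element). The last was added after seeing the sequences. No match overlapped another in the sequences printed.
SKIL: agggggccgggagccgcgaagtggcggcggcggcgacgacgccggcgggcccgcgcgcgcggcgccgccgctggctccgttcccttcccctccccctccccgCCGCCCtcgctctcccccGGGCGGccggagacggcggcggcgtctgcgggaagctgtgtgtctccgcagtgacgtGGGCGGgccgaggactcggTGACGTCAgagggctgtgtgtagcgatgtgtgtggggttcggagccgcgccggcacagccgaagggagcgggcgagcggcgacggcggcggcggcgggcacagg
The tall PML/RARA peak covered all 300 bases, though its summit lay farther upstream, and the PPARα peak covered the last 87. The sequence was 79.0% G or C and held 52 CpG pairs, against medians of 58.7% and 14 over 35116 RefSeq start sequences. It held 3 GC boxes, a motif present in 45.0% of start sequences, and the element TGACGTCA, present in 1.85%, which began 54 bases before the start. No receptor half-site of the 3 forms searched was in this window.

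SKI, the founding member of the same corepressor family, had the most PML/RARA peaks. SKI lies on chromosome 1 from 2228319 to 2310213. Its window held 25 PML/RARA peaks, a number reached by 0.190% of protein-coding genes, and 20.5 peaks per 100 kb, a density reached by 2.17%. The median protein-coding gene held 2 peaks, at 2.92 per 100 kb.

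Of the 25 peaks, 3 stood far above the rest. The first, chr1:2227572-2228083, had fold 23.2 and −log10 q 536, rank 86 of 46021, with its summit 519 bases outside the lower-coordinate end of the gene. The second, chr1:2234211-2234700, lay inside the gene with fold 23.6 and −log10 q 499, rank 103. The third, chr1:2290243-2291455, was 1213 bases wide, with fold 21.1 and −log10 q 331, rank 361.

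The other SKI peaks were weaker. Folds of 11.7, 11.2 and 9.87 were found at 3 sites inside the gene, and 17 of the 25 peaks had a fold under 5. The median over the 25 was 4.09, against 7.41 for the whole list.

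PPARα was called at both strong intragenic sites of SKI but not at its end. The PPARα peak at chr1:2234154-2234979 had a fold of 6.98 and its summit lay 197 bases from that of the PML/RARA peak beneath. The PPARα peak at chr1:2290296-2291249 had a fold of 9.32, rank 1828 of 9829, with summits 249 bases apart. No PPARα peak touched the PML/RARA peak of fold 23.2 beside the SKI end, which was the tallest member peak by fold without PPARα.

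TGIF1, a homeodomain corepressor of SMAD2 and of retinoid receptors, was marked at its internal starts only. TGIF1 lies on chromosome 18 from 3412009 to 3459978 and has 7 RefSeq starts. At the outermost one neither antibody had a peak. PML/RARA peaks of fold 11.8 (chr18:3448087-3448559) and 7.75 (chr18:3449230-3449755) lay over starts near the far end of the gene. A PPARα peak of fold 4.73, 1004 bases wide, covered the second of these, with summits 148 bases apart. The start of LOC124904237 lay within 1 kb of the PPARα peak and of the PML/RARA peak of fold 7.75, not of that of fold 11.8.

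SMAD7, the inhibitory SMAD induced by TGF-beta itself, had its peaks shortly upstream of the gene. SMAD7 lies on chromosome 18 from 48919853 to 48950965, on the minus strand. A PML/RARA peak of fold 10.1 (chr18:48951476-48952225) touched the start window, with its summit 1052 bases before the start. A PML/RARA peak of fold 6.94 followed, its summit 1715 bases before the start. The PPARα peak bridged the gap between these peaks, at chr18:48952196-48952694 with a fold of 8.82, rank 2464. Its summit was 1484 bases before the start, so SMAD7 did not count as marked by PPARα at its start. Inside the gene a PML/RARA peak of fold 12.7 was matched by a PPARα peak of fold 4.13, whose −log10 q of 2.22 was the lowest of the 14.

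**Figure D2:**
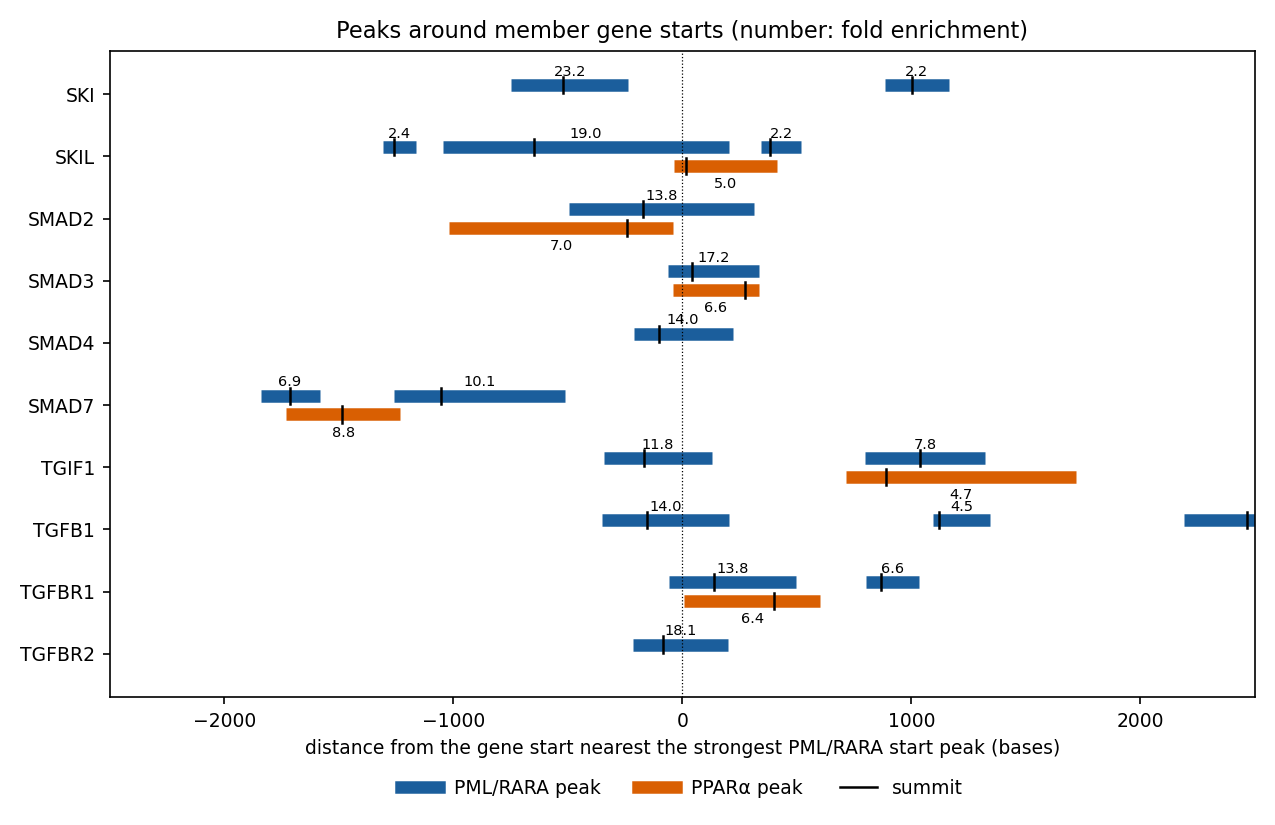
Extent of PML/RARA peaks (blue) and PPARα peaks (orange) in bases from the gene start nearest the strongest PML/RARA start peak, in the direction of each gene (for SKI, from its lower-coordinate end). Black ticks are summits and numbers are folds. All 10 genes show a PML/RARA bar, and the PPARα bar of SKIL lies over the start, away from the PML/RARA summit.

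SMAD2 and SMAD4, a receptor-activated SMAD and the common partner, each had a single PML/RARA peak, at the start. SMAD2 lies on chromosome 18 from 47808957 to 47930872, on the minus strand. Its PML/RARA peak (chr18:47930559-47931368) had a fold of 13.8 and its PPARα peak (chr18:47930912-47931889) a fold of 7.01. The summits were 69 bases apart, the closest pair of the set. SMAD4 lies on chromosome 18 from 51030213 to 51085042, on the plus strand. Its PML/RARA peak (chr18:51030000-51030433) had a fold of 14.02, and it was the only member with no PPARα peak in its window. The start of LOC107985152 lay within 1 kb of the same peak.

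SMAD3, the other receptor-activated SMAD, had peaks along its whole length. SMAD3 lies on chromosome 15 from 67065602 to 67195169, on the plus strand, with 5 RefSeq starts. Its window held 17 PML/RARA peaks, a number reached by 0.931% of protein-coding genes, at 10.03 per 100 kb, a density reached by 17.2%. Of these, 7 had a fold over 10, and 4 of the 7 had no PPARα overlap. The highest by −log10 q, chr15:67091162-67091522, had fold 17.3 and −log10 q 204, rank 1094. The highest by fold, chr15:67109657-67110019, reached 22.5. Both lay inside the gene away from any start, and PPARα was absent from the list at both.

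SMAD3 had 4 PPARα peaks, more than any other member, at folds from 4.65 to 6.61. Its window was also the longest of the set, at 170 kb. Per 100 kb it held 2.36 PPARα peaks, fewer than SMAD7 with 2.81. The outermost start carried a PML/RARA peak of fold 13.9 (chr15:67065162-67065966), which also lay within 1 kb of the start of the divergent transcript SMAD3-DT, and no PPARα peak. The internal start at 67125742 carried both, at chr15:67125681-67126077 for PML/RARA (fold 17.2) and chr15:67125702-67126075 for PPARα (fold 6.61). The summits at that start lay 232 bases apart, in peaks of nearly the same extent. A further PPARα peak of fold 5.09 lay upstream of the gene, within 1 kb of the SMAD3-DT start.

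The 2 SMAD3 starts, with the SMAD2 and SMAD4 starts, show sequences with both antibodies (SMAD2 and SMAD3 internal) and with PML/RARA only (SMAD4 and SMAD3 outermost). Positions are chr18:47930823-47931122 on the minus strand for SMAD2, chr15:67125492-67125791 on the plus strand for SMAD3 internal, chr18:51029963-51030262 on the plus strand for SMAD4, and chr15:67065352-67065651 on the plus strand for SMAD3 outermost, all RefSeq GRCh38.p14.
SMAD2: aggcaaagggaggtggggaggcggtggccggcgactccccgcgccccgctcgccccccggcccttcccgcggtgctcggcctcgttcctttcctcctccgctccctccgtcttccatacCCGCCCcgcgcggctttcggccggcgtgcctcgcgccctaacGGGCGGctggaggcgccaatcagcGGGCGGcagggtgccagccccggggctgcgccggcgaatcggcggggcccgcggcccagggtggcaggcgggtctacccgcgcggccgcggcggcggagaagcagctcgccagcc
SMAD3 internal: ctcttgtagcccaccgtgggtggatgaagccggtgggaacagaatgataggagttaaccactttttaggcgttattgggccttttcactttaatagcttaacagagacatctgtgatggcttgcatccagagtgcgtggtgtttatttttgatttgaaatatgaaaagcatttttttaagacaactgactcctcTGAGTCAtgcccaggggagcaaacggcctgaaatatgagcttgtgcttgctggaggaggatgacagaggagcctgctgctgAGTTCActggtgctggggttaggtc
SMAD4: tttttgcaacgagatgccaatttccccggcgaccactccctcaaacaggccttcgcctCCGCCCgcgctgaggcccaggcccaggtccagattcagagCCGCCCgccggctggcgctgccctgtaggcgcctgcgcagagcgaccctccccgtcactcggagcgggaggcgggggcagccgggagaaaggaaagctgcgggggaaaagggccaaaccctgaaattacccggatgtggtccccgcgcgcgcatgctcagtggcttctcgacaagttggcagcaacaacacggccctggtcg
SMAD3 outermost: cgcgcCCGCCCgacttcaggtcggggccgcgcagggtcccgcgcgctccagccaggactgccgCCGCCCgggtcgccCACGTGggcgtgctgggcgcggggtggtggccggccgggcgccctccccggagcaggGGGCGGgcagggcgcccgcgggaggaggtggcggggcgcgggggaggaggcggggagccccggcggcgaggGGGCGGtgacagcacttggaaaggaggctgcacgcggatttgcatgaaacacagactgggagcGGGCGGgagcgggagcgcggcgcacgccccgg
The SMAD3 internal start differed from the others in composition, at 47.0% G or C and 5 CpG pairs. SMAD2 had 78.7% and 45 pairs, SMAD4 66.7% and 28, and the outermost SMAD3 start 80.3% and 44. The internal SMAD3 start held no GC box but an AP-1 site, present in 4.95% of start sequences, and the half-site AGTTCA, present in 10.4%. GC boxes were found in the other 3 sequences, from 2 in SMAD4 to 5 in the outermost SMAD3 start, which also held an E-box (7.26% of start sequences).

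TGFBR1, the signalling kinase receptor, carried both antibodies at its start and TGFBR2, the ligand-binding receptor, carried PML/RARA alone. TGFBR1 lies on chromosome 9 from 99103647 to 99154192, on the plus strand, with 8 RefSeq starts. Its PML/RARA peak (chr9:99104632-99105189) had a fold of 13.8 and its PPARα peak (chr9:99104700-99105294) a fold of 6.43, with summits 262 bases apart. A smaller PML/RARA peak of fold 6.57 lay over a later start, and one of fold 7.14 inside the gene.

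TGFBR2 lies on chromosome 3 from 30606356 to 30694142, on the plus strand. Its start peak (chr3:30606385-30606802) had a PML/RARA fold of 18.1, the third highest start peak of the set after SKI and SKIL, and the start of LOC105377015 lay within 1 kb of it. PPARα met PML/RARA at an intragenic site instead, where a PPARα peak of fold 5.31 (chr3:30646440-30647066) covered a PML/RARA peak of fold 9.50, its summit 40319 bases after the nearest start. A last PML/RARA peak of fold 6.43 lay farther on.

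TGFB1, the ligand gene, had a PML/RARA peak at its start and none of PPARα that belonged clearly to it. TGFB1 lies on chromosome 19 from 41330323 to 41353922, on the minus strand. The start peak (chr19:41353719-41354273) had fold 13.99 and −log10 q 69.4. Inside the gene lay 3 peaks of fold 3.44 to 5.07. The window's only PPARα peak (chr19:41363826-41364244, fold 11.9, rank 1046) was the tallest PPARα peak of the set, but it lay within 1 kb of the starts of B9D2 and TMEM91, with its summit 10092 bases before the TGFB1 start. A PML/RARA peak of fold 14.2 lay beneath it. Past the lower-coordinate end of the gene lay PML/RARA peaks of fold 10.3 (chr19:41323507-41324037) and 10.05 (chr19:41327524-41328039), with −log10 q of 56.1 and 52.3. The same flank held a lower-scoring PML/RARA peak of fold 9.95 (−log10 q 18.4) near the starts of CCDC97 and LOC105372401. That peak reached to 19881 bases from the gene.

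The starts of TGFBR2 and TGFB1 are shown as the receptor and the ligand marked by PML/RARA only, and the TGIF1 start as an internal one with both antibodies. Positions are chr3:30606351-30606650 on the plus strand for TGFBR2, chr19:41353873-41354172 on the minus strand for TGFB1 and chr18:3449318-3449617 on the plus strand for TGIF1, all RefSeq GRCh38.p14.
TGFBR2: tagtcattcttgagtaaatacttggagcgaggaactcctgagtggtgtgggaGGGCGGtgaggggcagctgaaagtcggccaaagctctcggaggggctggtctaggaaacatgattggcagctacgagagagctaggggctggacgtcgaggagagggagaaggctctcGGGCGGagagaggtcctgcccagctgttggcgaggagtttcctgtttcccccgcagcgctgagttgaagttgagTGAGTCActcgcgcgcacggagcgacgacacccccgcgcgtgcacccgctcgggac
TGFB1: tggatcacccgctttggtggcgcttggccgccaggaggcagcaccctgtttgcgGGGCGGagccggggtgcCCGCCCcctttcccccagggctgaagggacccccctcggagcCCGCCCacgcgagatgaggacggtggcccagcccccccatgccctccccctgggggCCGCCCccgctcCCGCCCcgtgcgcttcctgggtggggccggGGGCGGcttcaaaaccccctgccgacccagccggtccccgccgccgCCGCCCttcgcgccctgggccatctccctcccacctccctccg
TGIF1: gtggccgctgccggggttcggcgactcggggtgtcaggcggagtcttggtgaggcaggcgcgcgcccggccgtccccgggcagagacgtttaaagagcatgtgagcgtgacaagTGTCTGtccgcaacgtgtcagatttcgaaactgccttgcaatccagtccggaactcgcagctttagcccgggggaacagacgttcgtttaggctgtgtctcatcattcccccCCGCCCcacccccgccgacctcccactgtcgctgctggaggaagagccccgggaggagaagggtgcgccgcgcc
The TGFBR2 sequence held an AP-1 site, which began 6 bases before the start, and 2 GC boxes. The TGFB1 sequence held 7 GC boxes and none of the other motifs. The TGIF1 sequence held 1 GC box and the SMAD-binding CAGACA, present in 16.9% of start sequences.

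Over all members 9 of the 10 genes had entries in the start table, with 30 start sequences in all. A PML/RARA peak touched 17 of the 30, and a PPARα peak touched 9, of which 8 were also touched by PML/RARA. The shares of all start sequences touched by each list are not given here, so nothing is read from these counts. The 12 touched by neither had a median of 51.0% G or C, against 75.0% for the 9 touched by PML/RARA only and 72.2% for the 8 touched by both. Over all start sequences the median was 58.7%. Whether they show the same split was not tested. GC boxes were in 13 of the 17 sequences touched by PML/RARA and in 3 of the 12 touched by neither. They were in 17 of the 30, against 45.0% of all start sequences, for which no such split is given here. The half-site AGGTCA was in 5 of the 30, with a share of 13.8% over all start sequences, and 4 of these 5 were touched by neither list. The palindrome GTCTAGAC was in 0 of the 30, and in 0.202% of all start sequences. Several of these windows overlap within TGFBR1, TGIF1, SMAD2 and TGFBR2, and the 12 touched by neither come from only 4 genes. The 30 are therefore not separate sequences.

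**Figure D3:**
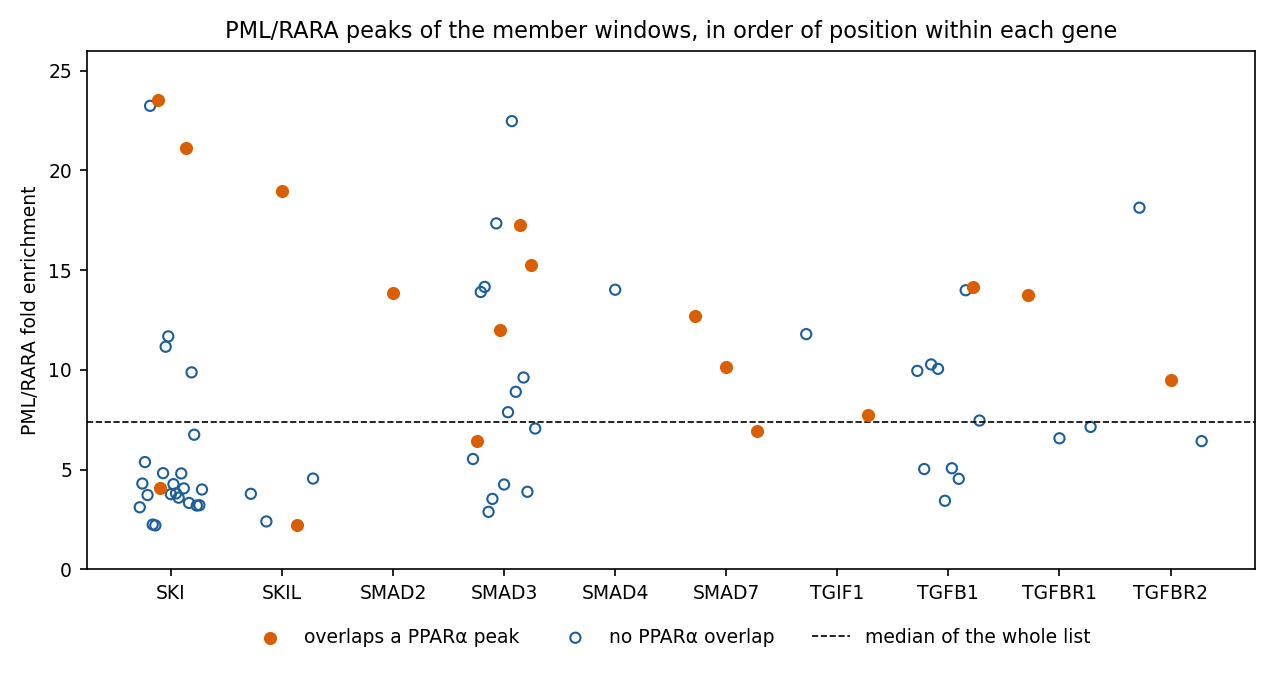
Fold of each of the 70 PML/RARA peaks (y axis, linear ratio) by gene, ordered by position within a gene. Filled orange points overlap a PPARα peak, open blue points do not, and the dashed line is the median of the whole PML/RARA list, 7.41. Most filled points lie above the line, and the tall open points include SKI, SMAD3, TGFBR2 and SMAD4.

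All 14 PPARα peaks of the set overlapped a PML/RARA peak by at least 1 base, and 90.1% of all PPARα peaks did so. Conversely, PPARα overlapped 17 of the 70 PML/RARA peaks (24.3%), against 21.4% of the whole list, so both shares lay near the background. The 17 had a median fold of 12.7 (2.21 to 23.6) and the 53 without PPARα a median of 5.07 (2.201 to 23.2). The median was thus higher with PPARα, while the ranges overlapped almost fully. Whether folds differ in the same way over the whole PML/RARA list was not tested.

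Summits of the nearest PPARα and PML/RARA peaks lay 69 to 365 bases apart, with a median of 197. They were within 200 bases for 8 of the 14 PPARα peaks (57.1%), against 55.6% of all PPARα peaks. SMAD2 (69), the last SMAD3 site (84) and TGFB1 (102) were closest, and SKIL (365) was farthest. PPARα folds over the 14 ran from 4.13 to 11.9 with a median of 5.87, and the median of the whole PPARα list was 6.26.

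**Figure D4:**
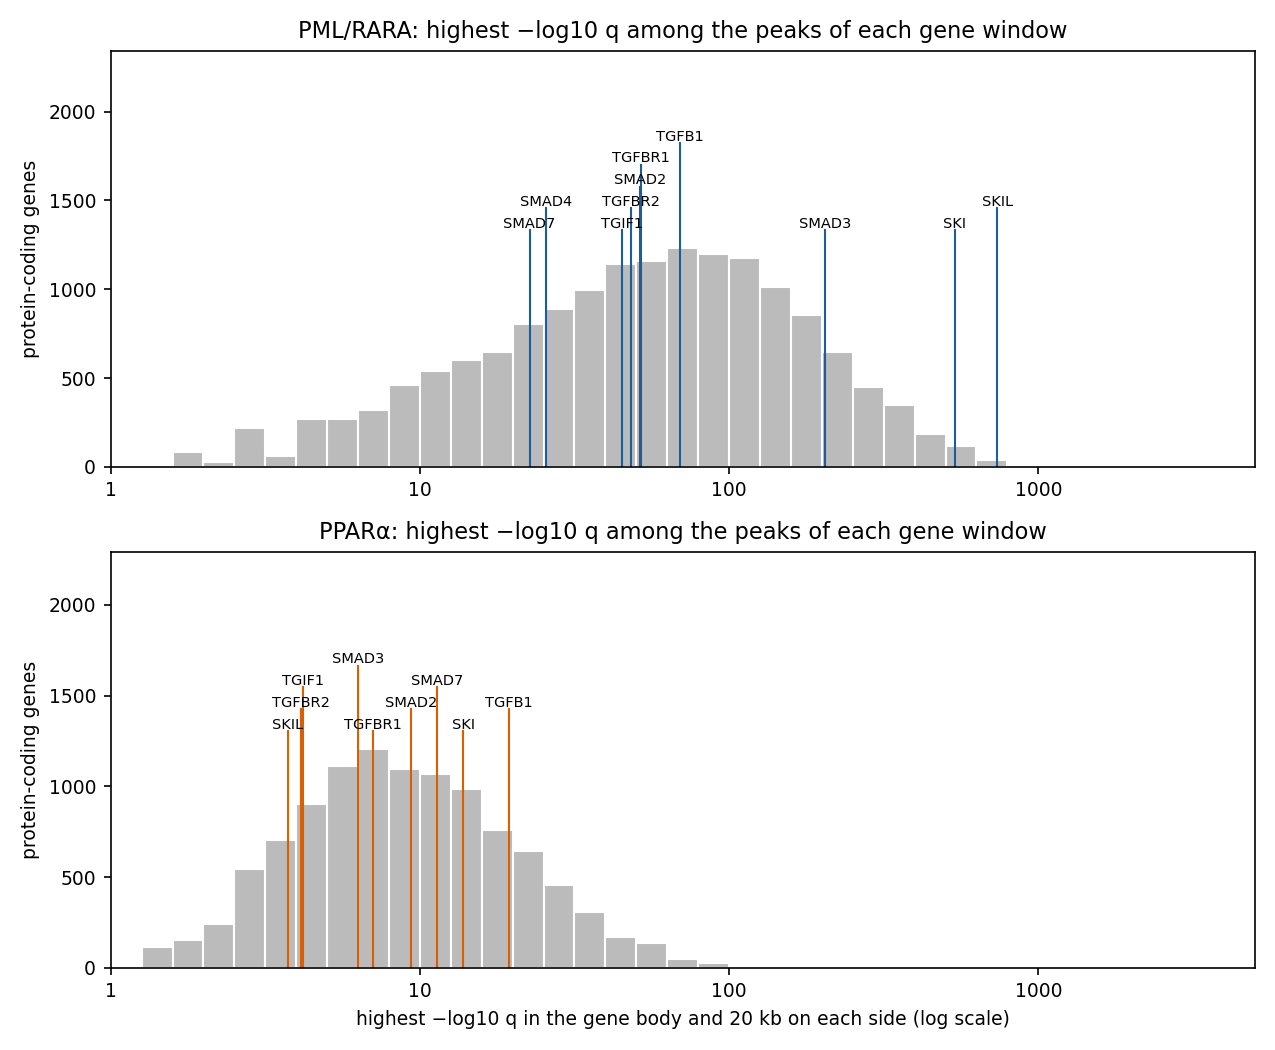
Number of protein-coding genes (grey bars) by the highest −log10 q among the peaks of their window, on a log axis, for PML/RARA (top) and PPARα (bottom). Coloured lines mark the members. SKIL (738) and SKI (536) lie in the upper tail for PML/RARA, and the 9 members with a PPARα peak lie between 3.73 and 19.4 in the lower panel.

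SKIL, SKI and SMAD3 had the highest PML/RARA peaks of the members by −log10 q. By the best PML/RARA −log10 q of the window, SKIL ranked 21, SKI 144 and SMAD3 1724 among all protein-coding genes. The other 7 ranked from 6766 (TGFB1) to 11851 (SMAD7), where the median −log10 q over the 15767 genes with a peak was 56.3. Of the 7 only TGFB1 (69.4) lay above that median, and SMAD7 was lowest at 22.6. SKIL was put in the set for its peak, so its rank is only a description. The ranks were not adjusted for window length, 122 kb at SKI and 170 kb at SMAD3 against a median of 64.2 kb. By PPARα the order was different, with TGFB1 at 1874 through its B9D2 peak, SKI at 3097 and SKIL at 9111. With 1 list per antibody, no difference between neighbours in these orders could be set against replicate error.

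Chromosome 18 holds 4 of the members, SMAD2, SMAD4, SMAD7 and TGIF1, and their windows held 7 PML/RARA peaks in all. The median protein-coding gene of chromosome 18 held 1 PML/RARA peak in its window, against 5 on chromosome 19, where TGFB1 with 10 lies, and 3 on chromosome 1, where SKI lies. On chromosome 18, 68.1% of protein-coding genes had a PML/RARA window peak and 40.4% a PPARα window peak.

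Another 70 genes of the pathway were grouped by role, and differences between the role groups were not tested. PML/RARA peaks lay at a start of 51 of them (72.9%, against 57.7% of all protein-coding genes) and PPARα peaks at a start of 23 (32.9%, against 32.7%). All 23 also had a PML/RARA peak at a start, which left 28 with PML/RARA only and 19 with neither. When only as many top PML/RARA peaks were used as there are PPARα peaks, 25 of the 70 had PML/RARA at a start (35.7%, against 30.4%), so the gap to all genes was smaller than in the full list.

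**Figure D5:**
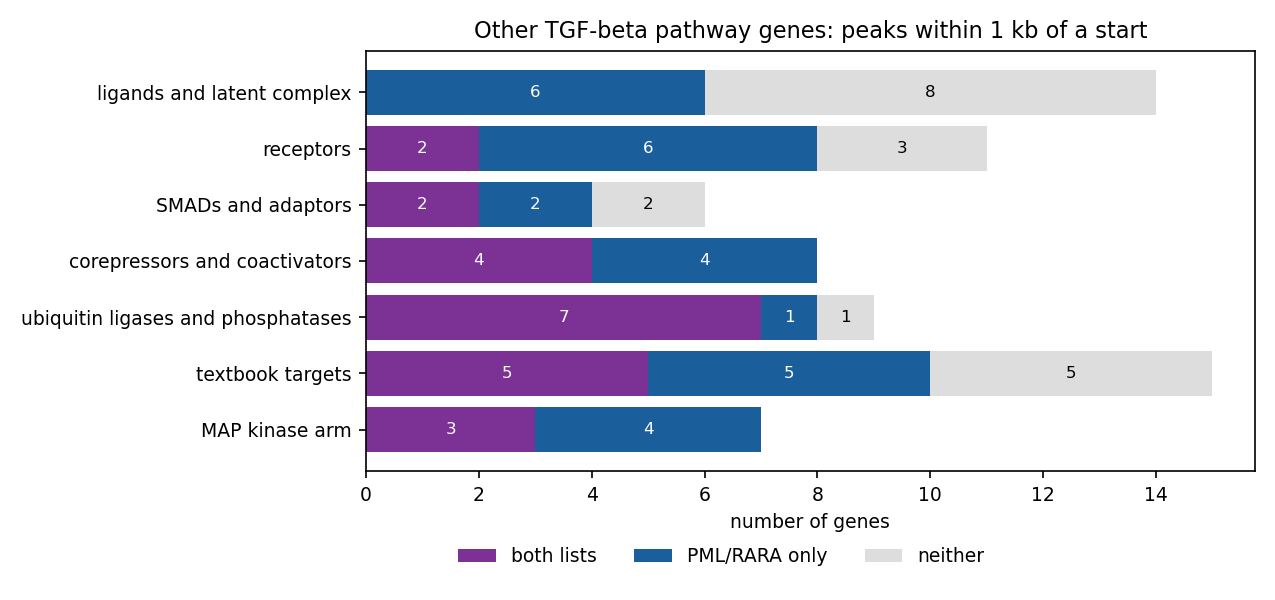
Number of other TGF-beta pathway genes (x axis) in each role group with peaks of both antibodies, of PML/RARA only or of neither within 1 kb of a start. The 14 genes of ligands and the latent complex include none with PPARα, and the 9 ubiquitin ligases and phosphatases include 7 with both. Over all protein-coding genes, 32.7% had PPARα at a start and 32.4% had both.

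Of 9 ubiquitin ligases, deubiquitinases and phosphatases, which turn the signal over, 8 had PML/RARA at a start (57.7% of all protein-coding genes). Of the 9, 7 had PPARα as well, where 32.4% of all protein-coding genes had both. They included USP9X, which removes ubiquitin from SMAD4 (PPARα fold 14.3, PML/RARA fold 16.3), SMURF2, a ligase for SMADs and receptors (7.93 and 22.5), PPM1A, a SMAD phosphatase (7.83 and 17.2), and USP15, a deubiquitinase of the pathway (9.26 and 17.5). PML/RARA lay at all 8 corepressors and coactivators and PPARα at 4. SIN3A, a scaffold of the deacetylase complex that SKI recruits, had a PML/RARA −log10 q of 410, rank 198, and a PPARα fold of 4.71. EP300 (PPARα 8.15, PML/RARA 22.1), CREBBP (4.31 and 22.998) and TGIF2 (4.58 and 9.61) followed. The paired folds of a gene come from a single start peak per list, and those peaks need not overlap. The CREBBP peaks did not overlap, and the TGIF2 peaks only touched at their ends.

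Other SMADs and adaptors had PML/RARA at 4 of 6 (66.7%, against 57.7% of all protein-coding genes) and PPARα at 2 (33.3%, against 32.7%). SMAD6, the second inhibitory SMAD, had a PML/RARA fold of 14.5 at a −log10 q of 237 and a PPARα fold of 7.78. SMAD5, which carries bone morphogenetic protein signals, had folds of 10.5 and 4.95, from peaks that only touched at their ends. ZFYVE9, which anchors SMADs at the receptor, and TGFBRAP1, a receptor-associated protein, had PML/RARA only (10.9 and 9.09). Receptors had PML/RARA at 8 of 11 (72.7%, against 57.7%) and PPARα at 2 (18.2%, against 32.7%). The 2 were TGFBR3 (PPARα 4.13, PML/RARA 8.10) and ACVR2A (6.33 and 8.57). ACVR1B, an activin receptor, and BMPR1A had PML/RARA alone (21.9 and 13.99).

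Ligands and proteins of the latent complex had PML/RARA at a start of 6 of 14 (57.7% of all protein-coding genes) and PPARα at a start of 0 of 14 (32.7%). In the wider windows 4 of these 14 held a PPARα peak, against 53.5% of all protein-coding genes. They were LTBP2, LTBP3, LTBP4 and NODAL, the last 3 named after their values were seen. GDF15 (6.10), LTBP2 (9.44), BMP2 (8.55) and THBS1 (7.72) had PML/RARA peaks of modest fold. Textbook target genes had PML/RARA at 10 of 15 (66.7%, against 57.7% of all protein-coding genes) and PPARα at 5 (33.3%, against 32.7%). JUNB had a −log10 q of 395 for PML/RARA (rank 216) with a PPARα fold of 6.04. KLF10 (PPARα 6.43, PML/RARA 11.6) and BHLHE40 (6.19 and 8.42) also had both, though these KLF10 peaks did not overlap. In the MAP kinase arm PML/RARA lay at 7 of 7 (57.7% of all protein-coding genes) and PPARα at 3 (42.9%, against 32.7%). The 3 were MAPK8 (9.45 and 25.6), MAPK14 (7.71 and 17.4) and TAB3 (6.27 and 18.2), while TAB2 had PML/RARA only (14.5).

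The windows end at 20 kb, and the nearest peaks beyond that limit were of both kinds. Just inside lay the TGFB1 peak of fold 9.95 at 19881 bases. Just outside lay a PML/RARA peak of fold 5.90 at 21607 bases and a PPARα peak of fold 4.54 at 21714 bases, both beyond TGFB1. Taller ones followed at SMAD7 (fold 19.8, 22582 bases), SMAD2 (20.1, 22672 bases) and SKI (15.4, 22916 bases), and none of these is counted above.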

How the data were processed

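The authors deposited 1 narrowPeak list per antibody without a header. Per the labels, 1 library was made with the PPARα antibody and 1 with the PML/RARA antibody. The submitters' processing notes name hg38, Bowtie2 2.2.9, SAMtools, MACS 1.4.2 and bedtools, with no roles or settings, and the layout is that of later MACS releases. The sources used here do not say whether the IgG libraries served as controls. Each deposited peak has a fold enrichment (linear ratio), −log10 p and q values, a whole-number score and a summit offset. The folds and q-values are the authors' and serve only to describe and rank peaks within a list. The lowest deposited −log10 q was 1.32 (PPARα) and 1.30 (PML/RARA) and the shortest peaks had 301 and 103 bases, so folds and widths were not compared between lists. The PPARα list has 9829 peaks and the PML/RARA list 46021. Peaks off chromosomes 1 to 22 and X (10 and 33) were left out.

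Genes and starts came from RefSeq GRCh38.p14, the same assembly as hg38. Starts and strand came from the RefSeq start sequence table, which covers 15812 of the 19974 genes. For the other 4162, SKI among them, both annotated ends stood in for the start. Exons and UTRs were not separated. Interval counts were tested on simulated data. All computing was in Python 3.11.15 with pandas 2.3.3. The members, gene lists and motifs were chosen with earlier results of these data known. All members are named. Of the other pathway genes at most 4 per role are named, those with both antibodies first, by PML/RARA −log10 q. Alternatives were stricter lists, a PML/RARA list shortened to the PPARα length, other flanks, start windows and overlap rules, and, added after seeing the data, the outermost start only.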

Additional observations from a re-analysis of the deposited data

How the results depend on the processing

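Of 54 recomputed counts, 42 stayed within 1.5 times the reported one and 12 did not. With −log10 q of at least 5, PPARα peaks in the windows fell to 7, those overlapping PML/RARA to 7, PML/RARA peaks overlapping PPARα to 9, and members with PPARα at a start to 3 (SMAD2, SMAD3 and TGFBR1). With a fold of at least 5, 43 PML/RARA peaks were left. When the PML/RARA list was reduced to the length of the PPARα list, 20 PML/RARA peaks were left, the overlaps were 9 in each direction, and 25 of the 70 other pathway genes kept a start peak (35.7%, against 30.4% of all protein-coding genes, where the full list gave 72.9% and 57.7%). All 10 members had a PML/RARA start peak in the full list and 8 in the shortened one. With summits within 200 bases as the overlap rule, 8 peaks of each list overlapped. With the outermost start only, 2 members (SKIL and SMAD2) had PPARα at the start and 9 had PML/RARA, TGIF1 being the exception. Fewer peaks or starts enter each of these counts by construction. No paired analysis was possible because each antibody has 1 list. Read depth is unknown, so the lack of a called peak does not show that a site is unbound.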
